A study of Mus musculus with 8 samples.

Results

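The choroid plexus transcripts described here are 9 genes (Ttr, Kl, Folr1, Clic6, Kcne2, Aqp1, Otx2, Sostdc1 and Slc4a5) taken as a marker set of choroid plexus and not for their change with age. They were found by gene symbol among the probes of 1-colour microarrays, which gave 12 probes of 39429 and 9 genes of 19751. RNA came from hand-dissected hippocampus of untreated wild type C57BL/6J mice that had aged in their home cages, from 4 samples of mice aged 3 months (3M) and 4 of mice aged 29 months (29M). Each sample was hybridised to 1 array. According to the study's methods, the old mice were bought as aged animals and then kept until the final age. The labels call the samples separate but do not tie each one to an animal, so the p-values measure the spread between these samples. In a deposited summary table most columns matched the array of another sample than the one named, and whether the scanner files themselves carry the right sample names could not be checked, which leaves every comparison of ages resting on the deposited assignment.

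The choroid plexus is a frond of epithelium and vessels inside the brain ventricles, and its epithelial cells secrete cerebrospinal fluid and form the barrier between blood and that fluid. The frond of the lateral ventricle lies against the hippocampus along the choroidal fissure, so a hippocampus taken out whole can carry some of it along. Its epithelium is known for very high expression of transthyretin and for a set of ion channels, carriers and secreted factors that neurons of the hippocampus largely lack.

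All 12 probes were well above background on all 8 arrays, so transcripts of every member were measured in every sample. The 15 marker genes of hippocampal neurons, among them Nrgn and Rbfox3, were also well above background, as the labelled tissue requires. Levels are given as normalized log2 intensities, on which a difference of 1 is a doubling, and they are compared only within a probe. Between 76.2% and 85.0% of the 43020 spots per array were well above background, and no spot was saturated. Precision is limited by having only 4 arrays per age. In bulk tissue, fewer choroid plexus cells and less RNA per cell cannot be told apart.

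No member was called different between the ages. To be called, a probe needed both a limma p below 0.1 after Benjamini-Hochberg adjustment over all probes and a log2 change of 0.5 or more in size. By this rule 0 of 9 members rose or fell, against 2.17% of all genes measured by 1 probe each (1.46% higher and 0.709% lower in 29M), and 1.97% of all 39408 tested probes. Also at an unadjusted p under 0.05 no member passed, a threshold for which no share of all genes is given. The groups overlapped in all 9 members, and they were apart in 11.4% of all genes. For a set of only 9 genes, 0 called and 0 apart lie near these shares. Neither count is read as a result about the members. The median log2 change of the members was 0.17, with 7 values above 0 and 2 below, beside 0.00 for all tested probes. Within the groups, the 8 members other than Ttr were more variable than most probes that were well above background. Ttr was not, with an SD of 0.109 in 3M and 0.127 in 29M, beside medians of 0.153 and 0.135 for such probes. A single array, replicate 3 of 3M, held the lowest value of 8 of the 9 members.

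Ttr, which encodes transthyretin, the carrier of thyroid hormone and retinol that the choroid plexus secretes, is the usual lead marker of this tissue. Its level was 18.30, 18.27, 18.07 and 18.28 in replicates 1 to 4 of 3M and 18.22, 18.03, 18.30 and 18.30 in replicates 1 to 4 of 29M. Each group thus held 1 lower array, replicate 3 of 3M and replicate 2 of 29M, and the others lay close together. The log2 change was -0.02 ± 0.09 (SE, n = 4 per group, 95% confidence interval -0.23 to 0.19, limma adjusted p = 0.931). The Ttr probe was the 48th brightest of the array, with linear intensities from 288356 to 319970 scanner units. Its range over the 8 arrays was 0.28, against 1.01 to 1.83 for the other 8 members and a median of 0.43 for the 48 probes that were at least as bright.

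Among the channels and carriers of fluid secretion, Clic6, a chloride channel family member, stood at 14.80, 15.24, 14.11 and 15.13 in 3M and at 15.11, 14.59, 15.20 and 15.20 in 29M. Kcne2, an accessory subunit of potassium channels in the apical membrane, stood at 13.43, 14.02, 12.54 and 14.09 in 3M and at 13.33, 12.94, 13.83 and 13.16 in 29M. Replicate 3 of 3M was the lowest array for both genes and replicate 2 was the lowest of 29M. The log2 change was 0.21 ± 0.24 for Clic6 (SE, adjusted p = 0.712) and -0.21 ± 0.33 for Kcne2 (SE, adjusted p = 0.798). Kcne2 and Ttr were the members whose fitted change lay below 0.

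Aqp1, the apical water channel, stood at 12.64, 13.02 and 11.64 in replicates 1 to 3 of 3M and at 12.77, 12.21, 12.68 and 12.94 in 29M. Its spot in replicate 4 of 3M was marked as an outlier by the extraction software and dropped, so the 3M group held 3 values. Slc4a5, an electrogenic sodium bicarbonate cotransporter of the apical membrane, stood at 11.58, 12.26, 10.79 and 12.10 in 3M and at 12.03, 11.52, 11.80 and 12.05 in 29M. The same pair of low arrays appeared in both genes. Aqp1 differed by 0.22 ± 0.31 between the ages (SE, n = 3 and 4, adjusted p = 0.774) and Slc4a5 by 0.17 ± 0.29 (SE, adjusted p = 0.818). The other Slc4a5 probe (A_55_P2032548) gave 0.34 ± 0.24 (SE, adjusted p = 0.522).

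Kl encodes klotho, the co-receptor for the hormone FGF23, which is also shed into the cerebrospinal fluid. It stood at 14.43, 14.95, 13.95 and 14.96 in 3M and at 14.78, 14.41, 14.56 and 14.54 in 29M, and the means of the groups were equal to the second decimal (14.57 each). The SD was 0.48 in 3M and 0.15 in 29M. Folr1, the folate receptor that carries folate across the epithelium, stood at 14.60, 14.82, 13.42 and 15.02 in 3M and at 14.60, 14.38, 14.81 and 14.97 in 29M. Replicate 3 of 3M lay 1.40 below the mean of the other 3 arrays of its group for Folr1, which is a 2.63-fold lower level and the widest such gap of a member. A second Folr1 probe (A_52_P584335) repeated this with a gap of -1.30. The log2 change with age was 0.00 ± 0.21 for Kl (SE, adjusted p = 0.998) and 0.23 ± 0.31 for Folr1 (SE, adjusted p = 0.760).

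Otx2, the homeodomain transcription factor that choroid plexus epithelium needs for its formation and upkeep, stood at 13.44, 13.93, 12.50 and 13.99 in 3M and at 13.77, 13.31, 13.64 and 13.70 in 29M. Its log2 change was 0.14 ± 0.29 (SE, adjusted p = 0.853), and again replicate 3 of 3M and replicate 2 of 29M were the lowest of their groups. Sostdc1, a secreted inhibitor of BMP and Wnt signalling, was read by a pair of probes. The brighter one (A_55_P2151388) stood at 13.38, 14.06, 12.59 and 14.42 in 3M and at 14.05, 13.43, 14.16 and 13.69 in 29M, with a log2 change of 0.22 ± 0.35 (SE, adjusted p = 0.801). The dimmer one (A_55_P2158121) stood at 12.32, 13.06, 11.60 and 13.40 in 3M and at 13.56, 12.85, 13.52 and 13.41 in 29M. Its log2 change of 0.74 ± 0.35 (SE, 95% confidence interval -0.04 to 1.52, adjusted p = 0.321) was the largest among the 12 probes and was not called. The pair of Sostdc1 probes thus gave unequal estimates, with wide 95% confidence intervals that overlap (-0.57 to 1.01 for the brighter one).

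**Figure D1:**
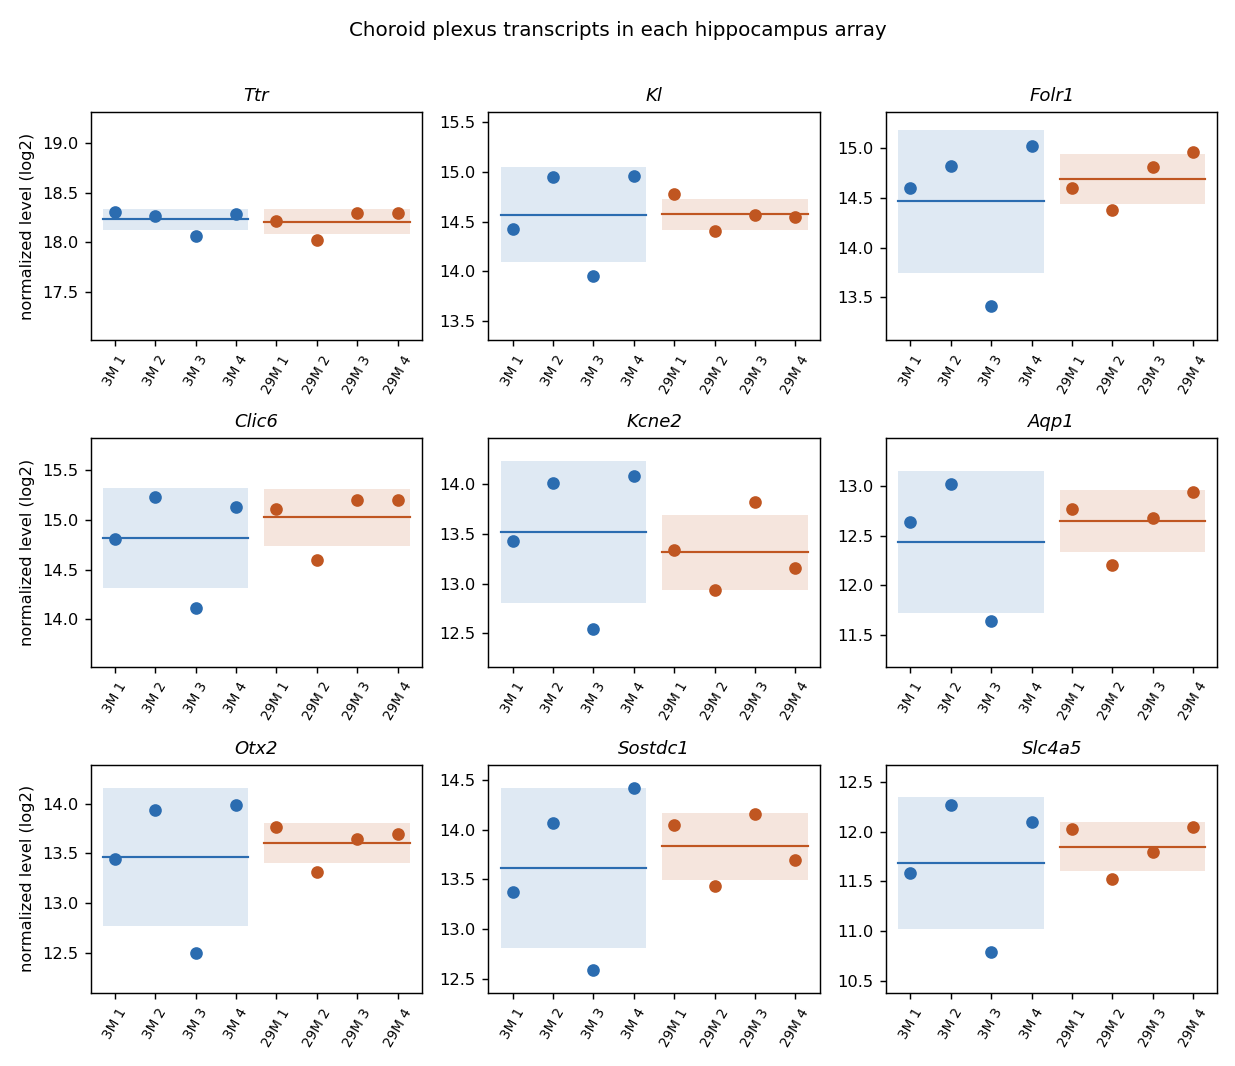
Normalized log2 level (vertical axis, 2.3 log2 units in every panel) of each of the 9 choroid plexus transcripts on each of the 8 arrays (horizontal axis). Points are arrays, lines are group means and shaded bands are ± 1 SD, with 3M in blue and 29M in orange. In all members but Ttr the lowest point is replicate 3 of 3M, and the lowest 29M point is replicate 2 throughout.

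For the 8 members other than Ttr, replicate 3 of 3M lay 0.83 (Kl) to 1.40 (Folr1) below the mean of the other 3M arrays on the log2 scale, or 1.77-fold to 2.63-fold lower. For Ttr the gap was -0.22, a 1.16-fold lower level. Counting all probes, 11 of 12 had their lowest value of the 8 arrays there, while the same array held the lowest value for 16.8% of the 30588 probes that were well above background throughout a group. In 29M, replicate 2 was the lowest of its group in 9 of 9 members, beside 24.2% of these probes. The median SD of the members was 0.69 in 3M and 0.26 in 29M, beside 0.15 and 0.13 for all such probes. It was larger in 3M for 8 of the 9 members and for 59.2% of the probes. The median range over the 8 arrays was 1.48 for the members and 0.50 for the probes at large, of which 4.35% ranged as widely as the median member.

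Without replicate 3 of 3M, the fitted change of all 9 members lay below 0, with a median of -0.13, and the median range of the members dropped to 0.67. Again no member was called, beside 1.33% of all probes in that fit. Kcne2 then changed by -0.53 (95% confidence interval -1.05 to -0.01, unadjusted p = 0.0467, adjusted p = 0.328 in limma), the only member with an unadjusted p under 0.05. Leaving out any of the other 7 arrays in turn gave medians from 0.11 to 0.35 and no called member. Both ages were present on each of the 3 slides. Within slide 1 the 29M arrays exceeded the 3M array for 11 of the 12 probes, by 0.06 (Kcne2) to 1.14 (Sostdc1, dimmer probe), and Ttr differed by -0.0052. Within slide 3, which held replicate 3 of 3M, all 12 probes were higher in 29M, by 0.02 (Kcne2) to 1.06 (Sostdc1, dimmer probe) against the mean of both 3M arrays. Aqp1 gave 1.13 there, but against replicate 3 of 3M alone. Within slide 2, with 1 array of each age, all 12 probes were lower in 29M, by -0.21 (Sostdc1, dimmer probe) to -1.08 (Kcne2). The direction of the members' change therefore differed between slides. Of the pair of low arrays, 1 was on slide 3 and 1 on slide 2, and slide 1 held neither. Their part in the direction on each slide was not tested.

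**Figure D2:**
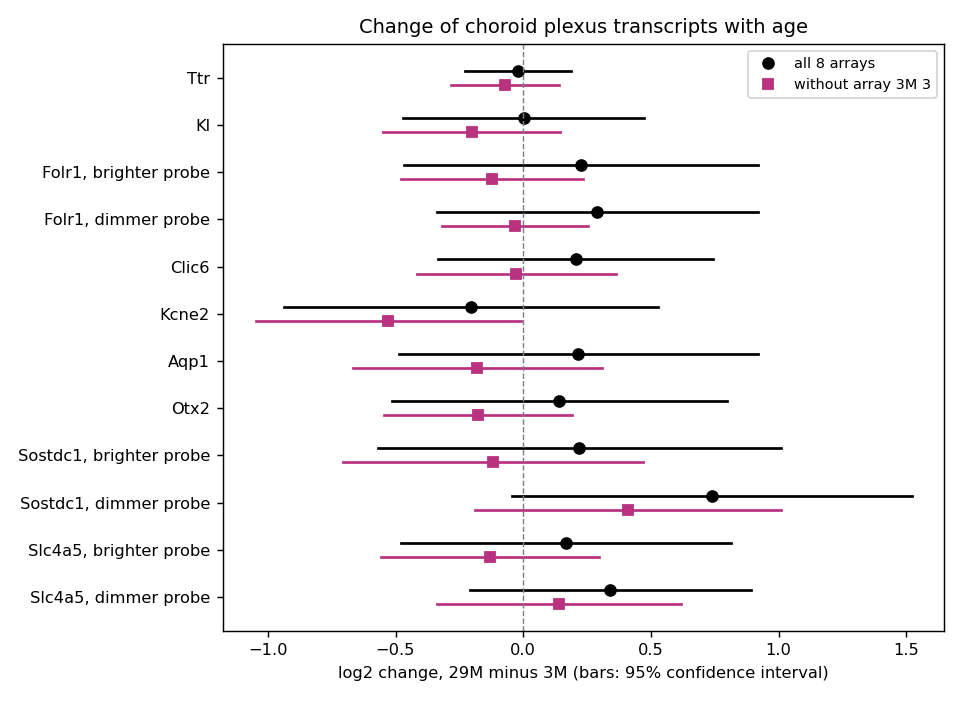
Fitted log2 change from 3M to 29M (horizontal axis) for the 12 probes of the 9 members (vertical axis), with 95% confidence intervals as bars, for all 8 arrays (black circles) and without replicate 3 of 3M (magenta squares). Without that array every estimate moves to the left and the 9 brightest probes per gene lie below 0, from -0.03 (Clic6) to -0.53 (Kcne2).

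The members followed a common profile over the arrays. When each member was centred on its mean, the average deviation of the 8 members without Ttr was -0.10, 0.40, -0.94 and 0.46 in replicates 1 to 4 of 3M and 0.17, -0.28, 0.20 and 0.15 in replicates 1 to 4 of 29M. Each single member correlated with the mean profile of all members with r from 0.77 to 0.99 over the 8 arrays, which describes them without a test, since the members make up that profile and share its arrays. Ttr was set against each of the other 8 members (8 relations, exact permutation test over all pairings, two-sided). Pearson's r ranged from 0.60 (Kl, adjusted p = 0.136) to 0.82 (Aqp1, over 7 arrays, adjusted p = 0.0762), and Spearman's rho from 0.24 (Otx2) to 0.57 (Folr1), with adjusted p = 0.582 in all 8. By neither measure did a relation pass an adjusted p under 0.05. Centring the values within each age left r between 0.60 and 0.87. Without the pair of arrays farthest from the Ttr median, replicate 2 of 29M and replicate 3 of 3M, r ranged from -0.49 to 0.41, so the positive r rested on these arrays, which also held most of the range of Ttr (0.28 with them and 0.086 without).

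A fit with the mean level of the other members as a covariate was added after the values had been seen. The slope on that level, which is 1 for a change in proportion, was 0.19 for Ttr, 0.67 for Kl, 0.80 for Clic6, 1.04 for Otx2, 1.07 for Aqp1 and 1.11 for Kcne2. For the genes with a pair of probes it was 1.06 and 0.96 (Folr1), 0.99 and 0.78 (Slc4a5) and 1.24 and 1.25 (Sostdc1). In this fit 0 of 9 members were called by their brightest probe, beside 2.13% of all genes and 1.9% of all probes when the mean level of the members was the covariate. Kcne2 had a log2 change of -0.37 ± 0.15 (SE, adjusted p = 0.255). The dimmer Sostdc1 probe passed with 0.63 ± 0.12 (SE, adjusted p = 0.0501), where the fits without the covariate gave adjusted p-values from 0.183 to 0.589. The brighter Sostdc1 probe gave 0.11 ± 0.14 (SE, adjusted p = 0.732). Relative to the other members, the dimmer Sostdc1 probe stood at -0.58, -0.32, -0.45 and 0.02 in 3M and at 0.44, 0.17, 0.39 and 0.27 in 29M. It was the only one of the 12 probes whose groups did not overlap on this relative scale. Of all probes 0.543% did not overlap on it, against 11.1% before the subtraction. Subtracting the members' profile widens the spread of probes that do not share it, so 0.543% cannot serve as a yardstick for the members. Of the 55 other choroid plexus genes 4 (Lmx1a, Abca4, Col8a2 and Lbp, 7.27%) did not overlap on the same scale. Which transcript forms either Sostdc1 probe reads was not examined.

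**Figure D3:**
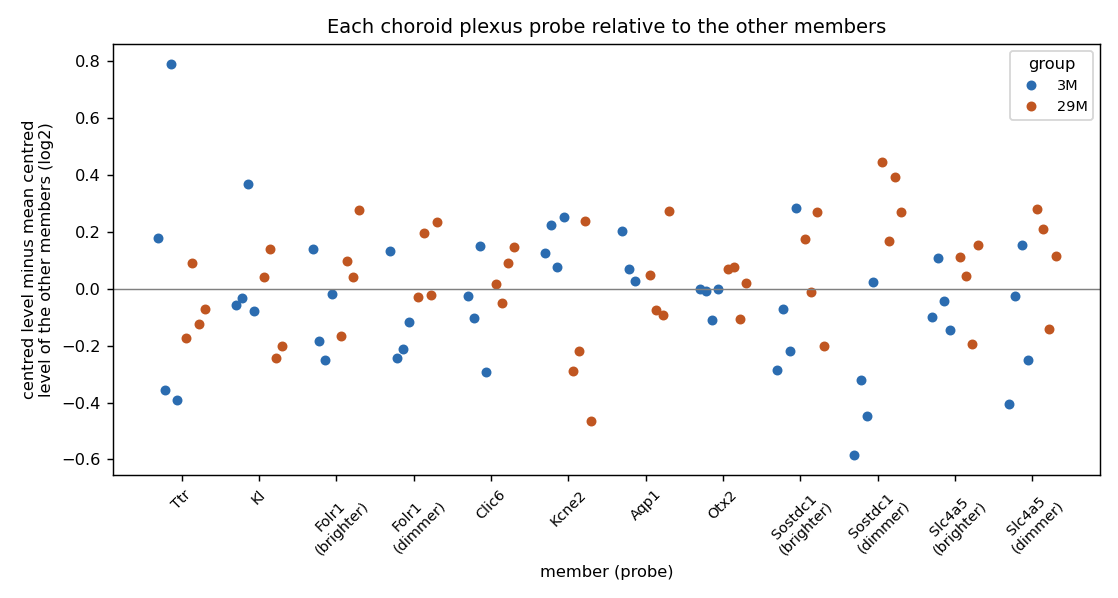
Centred log2 level of each member probe minus the mean centred level of the other members except Ttr (vertical axis) for the 12 probes (horizontal axis), with 1 point per array, 3M in blue and 29M in orange. The groups overlap for 11 of the probes and are apart for the dimmer Sostdc1 probe, and the highest Ttr point, 0.79, is replicate 3 of 3M.

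A wider set of 55 choroid plexus genes in 5 roles showed the same array profile with smaller amplitude. These genes were listed for their roles (57 in all, of which Mfrp and Tmem27 were not matched), and all 55 were well above background. Their lowest value fell in replicate 3 of 3M for 43 of the 55, and their mean deviation there was -0.68. With age, 1 gene was called higher and 0 lower (beside 1.46% and 0.709% of all genes). An unadjusted limma p under 0.05 was reached by 5. The share of all genes at that threshold is not given, so this count is not read as a result. The median log2 change was 0.19 with 45 values above 0, and without replicate 3 of 3M it was -0.01 with 26 above 0. By role, secreted and matrix genes had the lowest mean in replicate 3 of 3M (-0.89, lowest there in 11 of 12), and ion and fluid transport genes the highest (-0.33, 5 of 10). Barrier and other epithelial genes averaged -0.78 (10 of 12), carriers of nutrients and drugs -0.69 (8 of 10) and transcription and signalling genes -0.64 (9 of 11).

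Bmp7, a secreted BMP ligand, was the gene called. It stood at 11.73, 11.22, 11.50 and 11.04 in 3M and at 12.04, 12.08, 12.25 and 11.99 in 29M, so the groups did not overlap, and its log2 change was 0.72 ± 0.14 (SE, limma adjusted p = 0.0439). Its lowest arrays, replicates 4 and 2 of 3M, were the arrays where the members were highest, and its slope on the mean member level was -0.25. The 14 meningeal genes measured of 15 listed, all well above background, averaged -0.30 and -0.18 in the same arrays and spanned -0.30 to 0.11 in 3M and -0.38 to 0.58 in 29M. Its part in the Bmp7 change was not tested. Bmp7 was not called without replicate 2 of 3M, replicate 1 of 29M or replicate 2 of 29M, nor with the processed signals scaled to their 75th percentile (0.63, adjusted p = 0.108). The other gene whose groups did not overlap was Slc19a1, the reduced folate carrier, with a log2 change of 0.30 (adjusted p = 0.289). Thus 2 of the 55 genes were apart, beside 11.4% of all genes.

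The 2 genes of each role with the widest range over the 8 arrays were described next. Lmx1a, a homeodomain factor of the choroid plexus lineage, spanned 1.54 and Kcnj13, an apical potassium channel, 1.54, with log2 changes of 0.32 and -0.28. Sulf1, a heparan sulfate sulfatase, and Lbp, which binds lipopolysaccharide, each spanned 1.60. Prr32 spanned 1.84, Abca4, a retinoid transporter, 1.77 and Slco1a5, an organic anion carrier, 1.72. Each of these 7 genes was lowest in replicate 3 of 3M. Wfikkn2, a secreted protease inhibitor, spanned 2.35, was also lowest there and reached its highest level of 12.02 in replicate 4 of 29M. Spint2 (3.07), a membrane protease inhibitor, and Car14 (1.74), a carbonic anhydrase, were lowest in replicate 1 of 3M instead, at 9.53 and 11.44. Of these 10 genes none was called.

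Markers of neighbouring tissue moved with the members in part. Ependymal cells are the ciliated lining of the ventricles, and their 16 listed genes were all well above background. They averaged 0.15, 0.31, -0.75 and 0.47 in replicates 1 to 4 of 3M, and 14 of the 16 were lowest in replicate 3 of 3M. Across 29M their averages lay between -0.12 and 0.04, with replicate 2 at -0.09. Rarres2 and Mia, the brightest ependymal genes of the list, ranged over 1.21 and 1.69 and changed by -0.14 and -0.29 with age (adjusted p = 0.810 and 0.669). With all arrays none of the 16 was called, and the median log2 change was -0.09 with 5 values above 0. Without replicate 3 of 3M the median was -0.37, 0 of the 16 lay above 0 and 1 was called lower. The part of ependyma in the profile of the members was not tested.

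The other lists were less low on average in replicate 3 of 3M, with exceptions among their genes. Hippocampal neuron genes averaged 0.05 there (2 of 15 lowest), with a median log2 change of -0.02. Nrgn, a calmodulin-binding postsynaptic protein, was called lower (-0.54, adjusted p = 0.0872), but of the 8 fits that left out 1 array only 2 called it too, those lacking the first 3M or the third 29M array, and it was lost with the 75th percentile scaling (adjusted p = 0.176), with normexp and quantile normalization (0.112), with variance stabilisation of processed signals (0.122) and with slide as a fixed block (0.15). Meningeal genes averaged -0.05 (1 of 14 lowest) and reached 0.58 in replicate 3 of 29M. Dorsal thalamus genes, 12 of 13 well above background, averaged -0.24 (3 of 13 lowest) and reached 0.40 in replicate 4 of 29M. Prkcd and Zic1, the brightest genes of that list, were low in replicate 3 of 3M, Prkcd at 11.67 against 12.93 to 13.55 in the other 3M arrays and Zic1 at 11.52 against 12.73 to 13.50, and the part of thalamus in the profile of the members was not tested. Synpo2 was called higher (0.67, adjusted p = 0.0158), also with each array left out in turn. Endothelial genes averaged -0.10 (2 of 12 lowest), mural cell genes 0.04 (0 of 10) and red blood cell genes -0.14 (0 of 6). In these last 3 lists no gene was called.

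**Figure D4:**
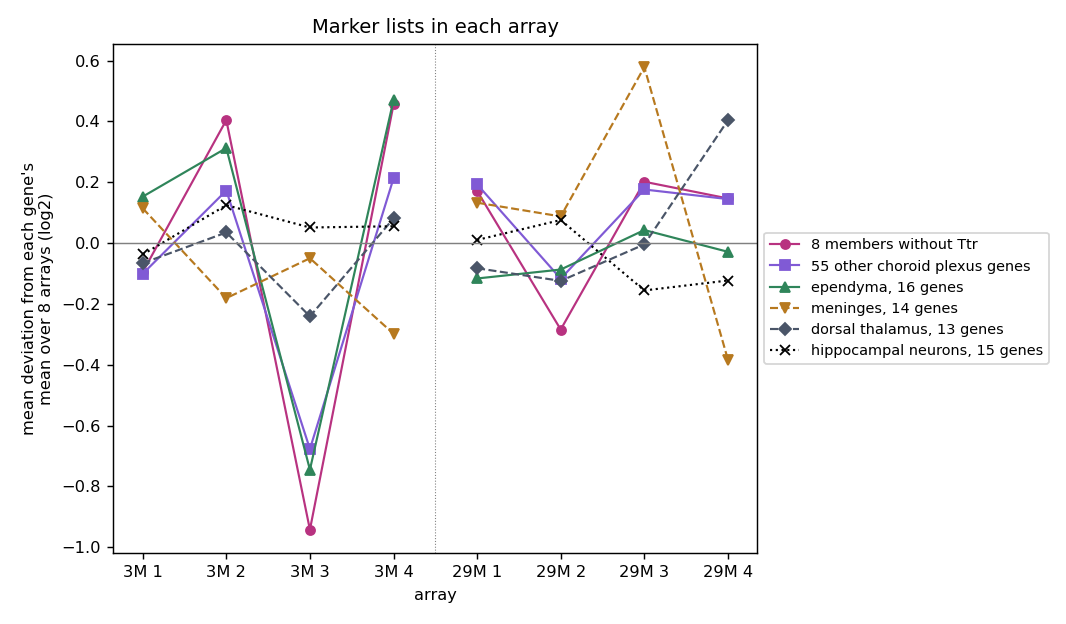
Mean deviation of marker lists from each gene's own mean over the 8 arrays (vertical axis, log2) on each array (horizontal axis, 3M on the left and 29M on the right of the dotted line), with 1 line per list. The 8 members without Ttr, the 55 other choroid plexus genes and the 16 ependymal genes reach -0.94, -0.68 and -0.75 in replicate 3 of 3M, where hippocampal neuron genes stand at 0.05.

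Outside all lists, 713 genes varied with an SD of at least 0.5 over the 8 arrays and were well above background, and those most like the mean profile of the members were ranked by Pearson's r over the 8 arrays. Ecrg4, which encodes a secreted peptide precursor known from choroid plexus, came first with r = 0.98. It was followed by Tex22 (0.96), Tmem184a (0.96), Six3os1 (0.94), the defensin Defb11 (0.94), Lrrc74b (0.93), the zinc transporter Slc39a4 (0.93) and Lbhd2 (0.93). In all 8 the lowest array was replicate 3 of 3M and the highest was replicate 4 of 3M. The mean profile of the members has these same extremes, so the choice by likeness to it largely sets this. Ecrg4 spanned 1.85 and changed by 0.10 ± 0.36 with age (SE, adjusted p = 0.919). Lbhd2 spanned 5.26, from 8.29 to 13.55 within 3M, with a change of 0.02 ± 0.93 (SE, adjusted p = 0.996). None of the 8 was called.

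Since Otx2 is the transcription factor among the members, promoter windows of members were searched for the OTX-type homeodomain motifs TAATCC and TAATCT on both strands. Windows were the 250 bases before a RefSeq transcription start on GRCm38.p6, and 5 members had 9 of them (Kl, Kcne2, Aqp1, Otx2 and Slc4a5). A match was held by 2 of the 9 windows, 1 of 2 for Kcne2 and 1 of 4 for Otx2, while 12.8% of all 32851 such windows hold 1 (6.25% TAATCC and 7.31% TAATCT). Both windows with a match are shown, with the match in capitals, as the only ones of the 9 that hold the letters searched. They are written 5′ to 3′ on the strand of the gene, so that a match in the opposite direction reads GGATTA or AGATTA. The Kcne2 window is chr16:92292139-92292388 on the plus strand, with its match 33 bases before the start, and the Otx2 window is chr14:48665110-48665359 on the minus strand, with its match 211 bases before the start. A match describes the sequence and shows no binding.
Kcne2: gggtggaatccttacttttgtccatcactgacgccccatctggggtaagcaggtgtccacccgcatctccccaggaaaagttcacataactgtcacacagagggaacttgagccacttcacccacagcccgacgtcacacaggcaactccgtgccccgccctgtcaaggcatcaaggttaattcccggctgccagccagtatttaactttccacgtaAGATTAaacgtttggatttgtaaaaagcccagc
Otx2: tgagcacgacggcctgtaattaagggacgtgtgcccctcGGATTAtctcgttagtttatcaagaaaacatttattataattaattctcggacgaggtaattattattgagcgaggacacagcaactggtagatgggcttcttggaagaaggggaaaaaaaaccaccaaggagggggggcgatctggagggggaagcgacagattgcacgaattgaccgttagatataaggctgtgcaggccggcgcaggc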

How the data were processed

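Hippocampal RNA of 4 samples at 3M and 4 at 29M was labelled with Cy3 and hybridised to 1-colour Agilent mouse 4x44K arrays. The authors deposited linear scanner intensities of each array with no scaling across arrays. Feature Extraction 10.7.3.1 made them, per the file headers, and where the headers and the study's methods differ in software version, scanner and design, the headers were followed. The deposited series table also holds intensities, but all 8 columns matched mean local background values (tolerance 0.001, column medians 26.7 to 34.8), in 7 cases those of a different sample's array. These are linear values of background and not of expression, so the table was not used. Each scanner file was taken as the sample it was deposited under, which could not be checked further.

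Median spot intensities were used without control spots and without the 127 to 190 outlier spots per array. Variance stabilising normalization (1 offset and 1 scale per array, least trimmed squares quantile 0.9, 7 iterations, own implementation in R 4.3.3) gave generalized log2 values, which understate changes of dim probes. Spots of 1 probe were averaged. In limma 3.58.1 a linear model of age with eBayes was fitted to probes usable on 3 or more arrays of each age, and p-values were adjusted by Benjamini-Hochberg over 39408 probes. The fit was tested on simulated data for this comparison (39098 probes, 200 changed), where 83% of changes of 1 and 99% of changes of 2 on the log2 scale were recovered and 10.8% of calls were false. The changed probes were drawn at random, each with its own spread and with no profile shared over the arrays. The members' median SD in 3M was 0.69, beside 0.15 for probes well above background. These shares therefore do not tell how often such changes would be called in the members.

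Accessions in the files were matched to RefSeq genes of GRCm38.p6, which named 26055 of 39429 probes (66.1%). Counts of genes use 1 probe per gene, the one brightest on average. The arrays were designed on mm9, so no gene coordinates are given, and those of the promoter windows are RefSeq's. Groups, replicate numbers and ages came from the labels. The members, marker lists and tests were chosen with earlier results of these data known. Genes outside the members were named by 1 rule: called genes of the lists, the 2 widest ranges of each choroid plexus role, the 2 brightest genes of each other list and the 8 genes most like the members. Of the brightest genes, only those a result turned on are printed, and Bmp7's neighbour in non-overlap, Slc19a1, was named after its values were seen. Alternatives covered the scaling, outlier spots, a filter on dim probes, slide and replicate blocks, the prior, array weights, a stricter threshold and each array left out.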

Additional observations from a re-analysis of the deposited data

Results flagged for a closer look

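A value was picked out when, in a group of 4 arrays, the gap between the extreme array and its nearest neighbour took a larger share of the range of the group than Dixon's 95% critical value. Among 49 groups of values (member probes and marker lists at each age) 5 met this, where chance gives about 1 in 20, or 2.45. The groups reuse the same arrays and in part the same genes, so they are not separate chances and 5 against 2.45 is no test. For Ttr in 3M the share was 0.861, with replicate 3 at 18.07 and the next array at 18.27. For Clic6 in 29M it was 0.847, with replicate 2 at 14.59 and the next at 15.11. The mean deviation of the 9 members in 29M gave 0.893, with replicate 2 at -0.27 and the next at 0.14, and the list of nutrient and drug carriers gave 0.846 for the same array, at -0.08 and the next at 0.17. Mural cell genes in 3M gave 0.913, with replicate 1 at -0.16 and the next at 0.02.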

How the results depend on the processing

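No member was called by its brightest probe under any alternative tried, and the dimmer Sostdc1 probe was called with the covariate alone. The 12 probes kept their direction under most alternatives, and these moved to the other side of 0. The Ttr change was 0.025 with normexp and quantile normalization and 0.010 with variance stabilisation of processed signals. With array weights it was -0.13 for Kl, -0.0084 for Clic6, -0.060 for Aqp1, -0.049 for Otx2, -0.0057 for the brighter Sostdc1 probe and -0.067 for the brighter Slc4a5 probe. Within slide 2 it was -0.54 for Kl, -0.44 and -0.29 for the Folr1 probes, -0.64 for Clic6, -0.82 for Aqp1, -0.62 for Otx2, -0.64 and -0.21 for the Sostdc1 probes and -0.74 and -0.45 for the Slc4a5 probes. Within slide 1 it was 0.059 for Kcne2, and within slide 3 it was 0.020 for Kcne2 and 0.041 for Ttr. With the other members as a covariate, added after the data had been seen, it was -0.077 for Kl and -0.082 for Aqp1. Leaving out 1 array gave -0.073 to 0.035 for Ttr, -0.20 to 0.13 for Kl, -0.12 to 0.41 and -0.033 to 0.45 for the Folr1 probes, -0.027 to 0.35 for Clic6, -0.18 to 0.52 for Aqp1, -0.18 to 0.32 for Otx2, -0.12 to 0.49 for the brighter Sostdc1 probe and -0.13 to 0.37 for the brighter Slc4a5 probe, with the lowest value without replicate 3 of 3M throughout. The median range of the members then lay between 0.67, without replicate 3 of 3M, and 1.49. Without the 2 arrays farthest from the Ttr median, r with Ttr was -0.49 for Kl, -0.19 for Clic6, -0.17 for Aqp1, -0.37 for Otx2, -0.30 for Sostdc1 and -0.45 for Slc4a5. The causes were not tested.

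Replicate numbers were not treated as pairs. Deviations of same-numbered arrays correlated at -0.33, 0.30, -0.31 and 0.11 (replicates 1 to 4), which does not settle whether the samples were paired in handling. With the replicate block 292 probes were called higher and 194 lower, where the fit without it called 456 and 321, and 0 members were called. Array weights gave 795 and 612, and an adjusted p under 0.05 gave 298 and 193. Leaving out 1 array gave 256 to 811 higher and 138 to 604 lower, lowest without replicate 2 and highest without replicate 1 of 3M. Of the 55 other choroid plexus genes, 0 were called with the 75th percentile scaling of processed signals (Bmp7 lost), 2 with slide as a fixed block (Bmp7 and Stra6), and 0 to 1 with 1 array left out.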
